A study of Mus musculus with 12 samples.

Results

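This account describes the transcriptional response to isoproterenol of adipocytes in which TBLR1 had been depleted by RNA interference. Its members are 6 of the 12 arrays of the series: 3 arrays of cells that carried TBLR1 shRNA and received isoproterenol, against 3 arrays of cells that carried TBLR1 shRNA and received none, with the groups taken from the sample labels. The cells were 3T3-L1 adipocytes, a mouse fibroblast-derived line that was differentiated into fat cells in culture. On day 9 of differentiation they received adenovirus carrying the shRNA at a multiplicity of infection of 500, and 3 days later they spent 2 h in Krebs-Ringer buffer. The treated cells then received 10 µM isoproterenol for 3 h, whereas the labels give no treatment and name no vehicle for the untreated cells. The remaining 6 arrays, 3 with isoproterenol and 3 without, came from cells that carried a negative control shRNA in the same adenoviral setting, and they served as the comparison for the response. All groups therefore shared the line, the differentiation protocol, the virus and the buffer. The labels name a single TBLR1 shRNA and do not say whether the 3 replicates of a group were separate cultures, so each p-value rests on the variation among these arrays alone, and that variation may be technical.

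Isoproterenol is an agonist of β-adrenergic receptors. In fat cells these receptors act through a stimulatory G protein on adenylyl cyclase, cyclic AMP accumulates, and protein kinase A phosphorylates both the machinery of lipolysis and the transcription factor CREB. CREB and its coactivators then switch on a first wave of genes, among them the NR4A orphan nuclear receptors, PGC-1α and several brakes of cAMP signalling itself. TBLR1 (gene Tbl1xr1) belongs to the co-repressor complexes that NCoR and SMRT form on nuclear receptors and is known for promoting the exchange of co-repressors for co-activators.

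The targeted gene was measured on every array. The log2 level of Tbl1xr1 was 6.48, 6.41 and 6.37 in TBLR1 shRNA cells with isoproterenol, 6.45, 6.47 and 6.43 in TBLR1 shRNA cells without it, 7.23, 7.34 and 7.29 in control shRNA cells with isoproterenol and 7.20, 7.27 and 7.26 in control shRNA cells without it. All 6 arrays labelled TBLR1 shRNA thus lay below all 6 arrays labelled control shRNA, and the difference between treated and untreated depleted cells was within its error (log2 difference -0.028 ± 0.042, limma adjusted p = 0.77). As for the labelled cell type, its defining transcripts were at high levels, with Adipoq (adiponectin) between 14.30 and 14.41 and Fabp4 (the adipocyte fatty acid binding protein) between 14.38 and 14.49 on the 6 TBLR1 shRNA arrays, near the top of the deposited range of 5.39 to 14.58.

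Replicate 1 of the untreated TBLR1 shRNA cells resembled the treated arrays more than its own group mates did. Its correlation with the 3 treated arrays over all genes was 0.9967 to 0.9973, against 0.9943 to 0.9962 for replicates 2 and 3. The mean level of 22 immediate early genes was 9.14, 9.29 and 9.18 in TBLR1 shRNA cells with isoproterenol, against 8.92, 8.62 and 8.56 in TBLR1 shRNA cells without it, so that replicate 1 was again the untreated array nearest to the treated ones. The difference between the 3′ and 5′ probe sets of the actin control was 0.99 to 1.05 in TBLR1 shRNA cells with isoproterenol against 0.88 to 0.91 in TBLR1 shRNA cells without it, and it was 0.98 to 1.04 in control shRNA cells with isoproterenol against 0.93 to 0.96 in control shRNA cells without it. The same difference for the Gapdh control overlapped, at -0.02 to 0.14 with isoproterenol against 0.02 to 0.05 without it in TBLR1 shRNA cells. In control shRNA cells it was -0.03 to 0.05 with isoproterenol against 0.01 to 0.06 without it. Of these measures of RNA integrity only the actin one moved with the treatment, and its part in the results was not tested.

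The question put to these arrays was what isoproterenol still changed once TBLR1 had been depleted. It left the depleted adipocytes with higher transcripts of members of several groups, among them Nr4a1 and Nr4a2, 15 of 22 immediate early genes, 8 of 17 feedback inhibitors of MAP kinase signalling, 3 of 17 brakes of cAMP and Ppargc1a, which encodes PGC-1α, and with lower Mylip. Of 15267 genes tested with limma, 1353 (8.86%) were called at an adjusted p under 0.05, of which 624 (4.09%) were higher and 729 (4.78%) were lower with isoproterenol. The higher genes were 46.1% of those called, and 57% after cyclic loess normalisation. A change of 1.5-fold or more was reached by 91 of the higher genes and by 3 of the lower genes, and one of 2-fold or more by 26 of the higher genes and by none of the lower. The values of treated and untreated arrays did not overlap for 3840 genes (25.2%), and with 3 arrays against 3 a two-sided exact permutation test of a single gene cannot go below p = 0.1. The count of called genes depended on single arrays: it was 752 without replicate 3 of the untreated TBLR1 shRNA cells, 834 without replicate 2 of that group and 873 without replicate 2 of the treated TBLR1 shRNA cells. It was 1681 without replicate 1 of the untreated cells, the array that resembled the treated ones.

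The response is described first by 3 transcripts chosen as its marks with earlier results of these data known, of which Nr4a1 and Nfil3 rose and Mylip fell. Nr4a1, an orphan nuclear receptor of the immediate early class (probe set 15370_at), had log2 levels of 11.33, 11.49 and 11.37 with isoproterenol, against 9.77, 9.36 and 9.50 without it. Nfil3, a basic leucine zipper repressor that acts on clock and cytokine genes (probe set 18030_at), had 10.98, 10.69 and 10.79 with isoproterenol, against 8.97, 8.91 and 8.80 without it. The treated arrays of both genes lay above every untreated array, and the rises amounted to 1.85 ± 0.085 and 1.93 ± 0.074 on the log2 scale (SE, n = 3 arrays a group), or 3.61-fold and 3.8-fold (limma adjusted p = 1.08e-09 and 2.01e-10). Mylip encodes the ubiquitin ligase IDOL, a liver X receptor target that marks the LDL receptor for degradation (probe set 218203_at). Its log2 level was 9.84, 9.65 and 9.78 with isoproterenol, against 10.43, 10.72 and 10.80 without it, with no overlap. The log2 difference was -0.90 ± 0.077 (limma adjusted p = 1.39e-06), the largest fall among the called genes.

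**Figure D1:**
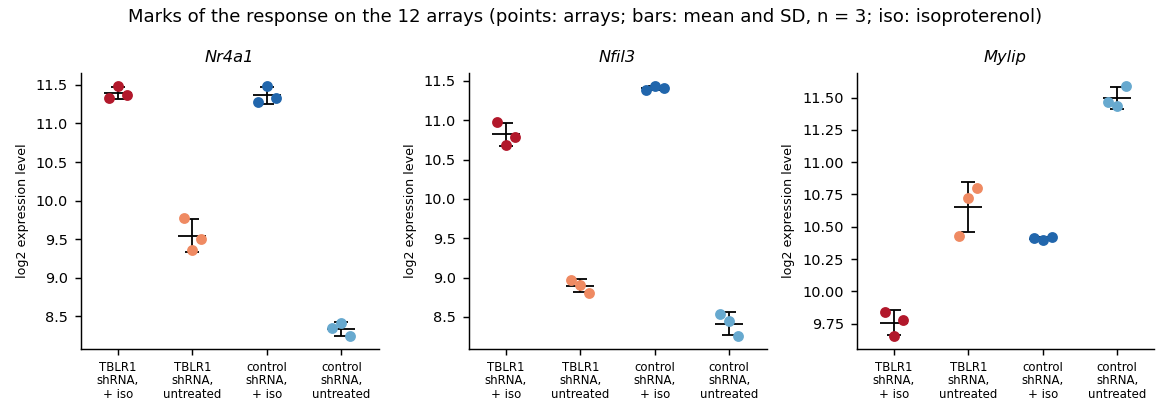
Log2 expression level (vertical axes) of Nr4a1, Nfil3 and Mylip on all 12 arrays, in the 4 groups by shRNA and isoproterenol (iso), with points for arrays and bars for the mean and SD of 3 arrays. Treated Nr4a1 ended at a mean of 11.40 with TBLR1 shRNA and 11.36 with control shRNA, while untreated Nr4a1 stood at 9.55 with TBLR1 shRNA and 8.33 with control shRNA.

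The promoters of a few of these genes are shown because cAMP signalling is known to reach many of them through CREB. The sequences are the 250 bases before the start site, 5′ to 3′ on the gene's strand, from RefSeq on GRCm38.p6, and capitals mark the cAMP response element TGACGTCA or its core, TGACG or on the opposite strand CGTCA. The windows lie at chr15:101266596-101266845 (plus strand) for Nr4a1, chr13:52981040-52981289 (minus strand) for Nfil3, chr17:26508473-26508722 (minus strand) for Dusp1 and chr2:173152823-173153072 (plus strand) for Pck1. Mylip, which fell, is shown beside them and lies at chr13:45389492-45389741 (plus strand).
Nr4a1: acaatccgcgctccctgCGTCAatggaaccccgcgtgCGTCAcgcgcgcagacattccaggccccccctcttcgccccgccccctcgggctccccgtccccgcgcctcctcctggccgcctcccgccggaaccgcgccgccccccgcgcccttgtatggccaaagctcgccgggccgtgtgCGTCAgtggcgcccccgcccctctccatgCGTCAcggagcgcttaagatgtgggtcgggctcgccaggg
Nfil3: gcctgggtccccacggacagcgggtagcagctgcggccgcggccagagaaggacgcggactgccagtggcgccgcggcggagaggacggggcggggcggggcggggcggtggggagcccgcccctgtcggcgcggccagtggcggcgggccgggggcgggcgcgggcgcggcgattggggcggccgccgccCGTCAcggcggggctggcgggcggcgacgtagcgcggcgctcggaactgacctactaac
Dusp1: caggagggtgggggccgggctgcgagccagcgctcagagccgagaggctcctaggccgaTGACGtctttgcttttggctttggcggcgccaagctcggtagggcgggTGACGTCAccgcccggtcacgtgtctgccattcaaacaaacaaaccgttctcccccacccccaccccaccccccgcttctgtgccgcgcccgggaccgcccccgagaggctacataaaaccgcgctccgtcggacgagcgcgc
Pck1: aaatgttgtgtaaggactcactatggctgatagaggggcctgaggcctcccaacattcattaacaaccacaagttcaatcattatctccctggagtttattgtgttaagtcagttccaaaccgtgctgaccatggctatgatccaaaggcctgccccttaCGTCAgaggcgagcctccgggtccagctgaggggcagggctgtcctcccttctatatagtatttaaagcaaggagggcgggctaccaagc
Mylip: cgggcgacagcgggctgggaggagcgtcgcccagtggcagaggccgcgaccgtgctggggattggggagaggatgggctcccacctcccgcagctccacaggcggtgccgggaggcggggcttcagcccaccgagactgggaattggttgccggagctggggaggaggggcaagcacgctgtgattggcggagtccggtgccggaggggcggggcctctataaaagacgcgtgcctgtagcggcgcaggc
The Nr4a1 window held 4 core sites, of which the nearest began 40 bases before the start. Nfil3 held 1 core site, 59 bases before the start, and Pck1 held 1, 90 bases before it. Dusp1 held the full element 143 bases before the start and a further core site at 191 bases, whereas the letters of neither motif occurred in the Mylip window. Over all tested genes with a window (15474 windows of 12273 genes) 2.23% of windows held the full element and 22.9% held a core site, on either strand, with each full element also counted as a core site. Among windows of genes called higher by at least 1.5-fold (83 windows of 73 of the 91 genes) the shares were 8.43% and 39.8%, among all genes called higher (675 windows of 501 of the 624) 4.3% and 32%, and among genes called lower (755 windows of 598 of the 729) 3.05% and 28.6%. The promoters shown were picked by no fixed rule and stand for neither the higher nor the lower genes. These shares describe letters in a window and no binding was measured.

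The largest rises beyond those marks fell on secreted proteins, transcription factors, feedback inhibitors and metabolic regulators. Wfdc12, a small secreted protein of the protease inhibitor type, had log2 levels of 9.60, 9.45 and 9.65 with isoproterenol, against 7.79, 7.75 and 7.42 without it, a rise of 1.91 ± 0.10 (limma adjusted p = 7.48e-09). Tnfaip6, which encodes the hyaluronan-binding protein TSG-6, had 10.30, 10.02 and 10.05 with isoproterenol, against 8.28, 8.14 and 8.27 without it (rise 1.89 ± 0.076). Both genes were separated from their untreated arrays by more than 1 log2 unit on every array. Ppargc1a encodes PGC-1α, the coactivator of mitochondrial and thermogenic genes, and had 9.76, 9.52 and 9.57 with isoproterenol, against 7.80, 7.86 and 7.94 without it (rise 1.75 ± 0.07). Hilpda encodes a lipid droplet protein that inhibits adipose triglyceride lipase, and had 10.64, 10.52 and 10.55 with isoproterenol, against 9.22, 9.04 and 8.96 without it (a 2.83-fold rise). Dusp1, the phosphatase that switches off p38 and JNK, had 10.38, 10.53 and 10.43 with isoproterenol, against 9.36, 8.86 and 8.85 without it, and its highest untreated array was replicate 1 (rise 1.43 ± 0.10). These levels belonged to genes of lipid storage, mitochondria and kinase control. The other largest rises were Tcim, a small regulator of transcription (1.73 ± 0.064), Coq10b, a mitochondrial coenzyme Q binding protein (1.34 ± 0.053), Crem, the cAMP-responsive relative of CREB (1.26 ± 0.051), Ier3 (1.19 ± 0.13), the anticoagulant receptor Thbd or thrombomodulin (1.19 ± 0.066), the cytokine Il6 (1.18 ± 0.16), the insulin receptor substrate Irs2 (1.17 ± 0.087) and Pdk4, the kinase that restrains pyruvate dehydrogenase (1.16 ± 0.067). With Nr4a1 and Nfil3 these were the 15 largest rises among called genes with a symbol whose treated and untreated arrays did not overlap. The falls below were chosen likewise.

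The largest falls were smaller in size and included genes of inflammation, transcription and mitochondria. Saa3, an acute phase protein made by inflamed adipocytes, had log2 levels of 9.72, 9.69 and 9.92 with isoproterenol, against 10.28, 10.60 and 10.47 without it, a log2 difference of -0.67 ± 0.13 (limma adjusted p = 0.00408). Snai2, the zinc finger repressor Slug, had 8.31, 8.17 and 8.20 with isoproterenol, against 8.61, 8.85 and 8.91 without it (-0.56 ± 0.067). Tlr2, a receptor for bacterial lipoproteins, had 9.06, 9.12 and 9.18 with isoproterenol, against 9.51, 9.70 and 9.61 without it (-0.49 ± 0.063). Saa3 and Tlr2 both belong to innate immune signalling. Glcci1, a glucocorticoid-induced gene (-0.64 ± 0.072), Etfbkmt, a mitochondrial lysine methyltransferase (-0.51 ± 0.086), Rcor3, a member of the CoREST co-repressor family (-0.47 ± 0.04), Rassf6 (-0.45 ± 0.075), Napepld, an enzyme of N-acylethanolamine synthesis (-0.45 ± 0.056), Ttc30b, a component of ciliary transport (-0.48 ± 0.075), Slf2 (-0.45 ± 0.047) and Syde2 (-0.45 ± 0.054) also fell. AW549877 (-0.51 ± 0.056), AI597479 (-0.46 ± 0.063) and 2810410L24Rik (-0.48 ± 0.053) completed the list.

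**Figure D2:**
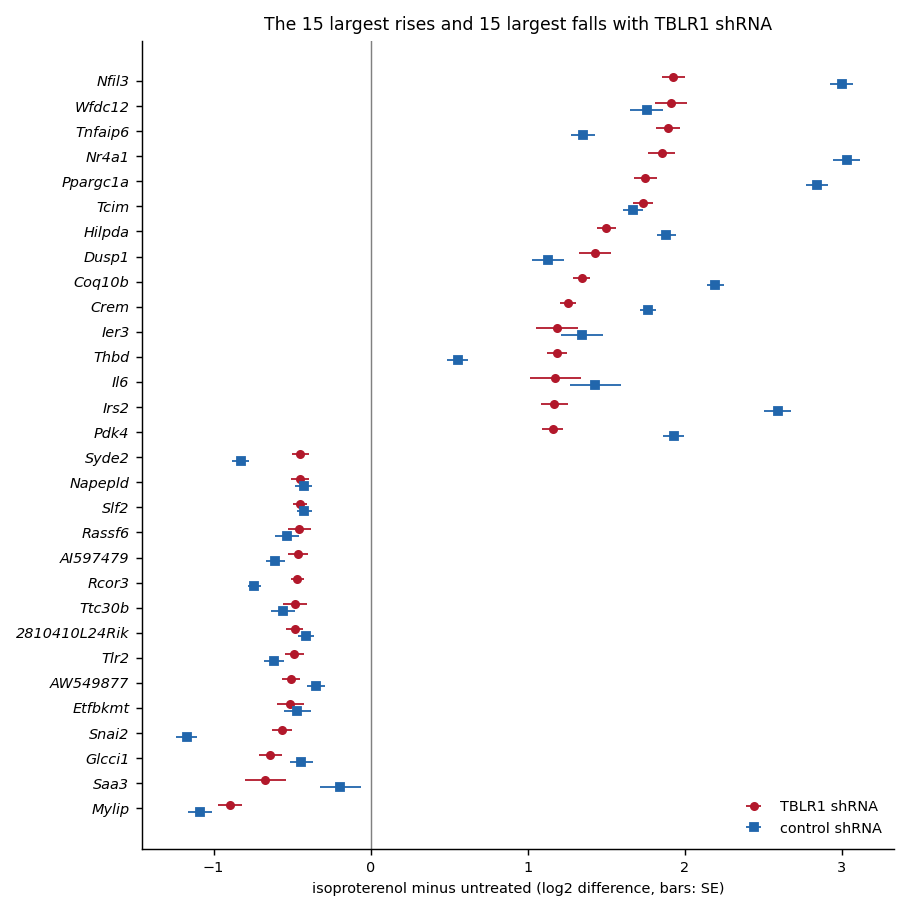
Log2 difference between isoproterenol and untreated cells (horizontal axis, bars for SE) of the called genes with TBLR1 shRNA that rose most (15) and fell most (15), drawn as circles, with the same genes in control shRNA cells as squares. The rises with TBLR1 shRNA ran down to 1.16 (Pdk4) and the falls ran from -0.90 (Mylip) to -0.45 (Syde2).

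The genes of the signalling route itself were read by list. The lists that follow are described without a test of the list, and each count reads against the 4.09% of all genes called higher and the 4.78% called lower. Of 17 measured genes of the β-adrenergic receptor, adenylyl cyclase and protein kinase A list, 2 were higher and none was lower, and the median log2 difference was 0.04, against -0.0042 over all genes. One was Prkar1a, a regulatory subunit of protein kinase A, at 0.21 ± 0.044 (limma adjusted p = 0.00646), which lost its call when arrays were centred on the hybridisation controls (adjusted p = 0.0596). When any one treated array or untreated replicate 3 was left out, 1 of the 17 was called. Of 17 brakes of cAMP, 3 were higher and none was lower (median 0.02). These were Crem, the kinase Sik1 that holds CREB coactivators in the cytoplasm (1.10 ± 0.055), and the phosphodiesterase Pde4b that degrades cAMP (0.79 ± 0.056, limma adjusted p = 1.73e-07). Pde4b had log2 levels of 9.07, 9.00 and 9.02 with isoproterenol, against 8.26, 8.22 and 8.21 without it. Of 12 genes of the CREB and CRTC list, which shares Crem and Sik1 with the brakes, 4 were higher and 2 were lower (median 0.05), the others higher being Creb3l2 (0.31 ± 0.043) and Sik2 (0.22 ± 0.045).

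The immediate early factors were the list with the largest share of called members. Of 22 measured genes 15 were higher and none was lower, with a median log2 difference of 0.49. The AP-1 member Fosl1 had log2 levels of 8.77, 8.91 and 8.78 with isoproterenol, against 8.11, 7.62 and 7.52 without it (rise 1.07 ± 0.10), and Fos had 10.55, 10.83 and 10.60 with isoproterenol, against 10.22, 9.63 and 9.58 without it (rise 0.85 ± 0.13). In Fos the untreated replicate 1 stood above its group mates but still below the treated arrays. Ier3 had 9.99, 10.18 and 9.99 with isoproterenol, against 9.24, 8.67 and 8.70 without it, and the antiproliferative gene Btg2 rose by 0.97. Of the 3 NR4A receptors, Nr4a1 and Nr4a2 were higher and Nr4a3 was not called (0.037 ± 0.048, limma adjusted p = 0.722). The mean level of Nr4a3 lay among the lowest 33% of genes, where a lack of change may reflect a signal near background. Nr4a2 had log2 levels of 7.89, 7.90 and 7.87 with isoproterenol, against 6.95, 6.95 and 6.52 without it (rise 1.08 ± 0.10).

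Other transcription factor families moved in part. Of 11 Krüppel-like factors 5 were higher and 1 was lower (median 0.17), with Klf4 at 0.78 ± 0.082, Klf5 at 0.70 ± 0.12, Klf10 at 0.34 ± 0.057 and Klf9, a target of glucocorticoid and thyroid hormone receptors, at 0.31 ± 0.044. Klf4 had log2 levels of 9.69, 9.68 and 9.62 with isoproterenol, against 9.03, 8.77 and 8.85 without it. Of 17 clock and PAR bZIP genes 3 were higher and 3 were lower (median -0.04). Besides Nfil3, the E-box repressor Bhlhe40 rose by 0.27, whereas the nuclear receptors Rora (-0.29 ± 0.051) and Nr1d2 (-0.26 ± 0.037) fell. Of 17 feedback inhibitors of MAP kinase signalling 8 were higher and none was lower (median 0.19), among them the ERK phosphatases Dusp6 (0.84 ± 0.13) and Dusp5 (0.67 ± 0.12) and the EGF receptor inhibitor Errfi1 (0.71 ± 0.13). Errfi1 had 9.71, 10.18 and 10.06 with isoproterenol, against 9.68, 9.11 and 9.03 without it, and its untreated replicate 1 lay just below the lowest treated array.

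**Figure D3:**
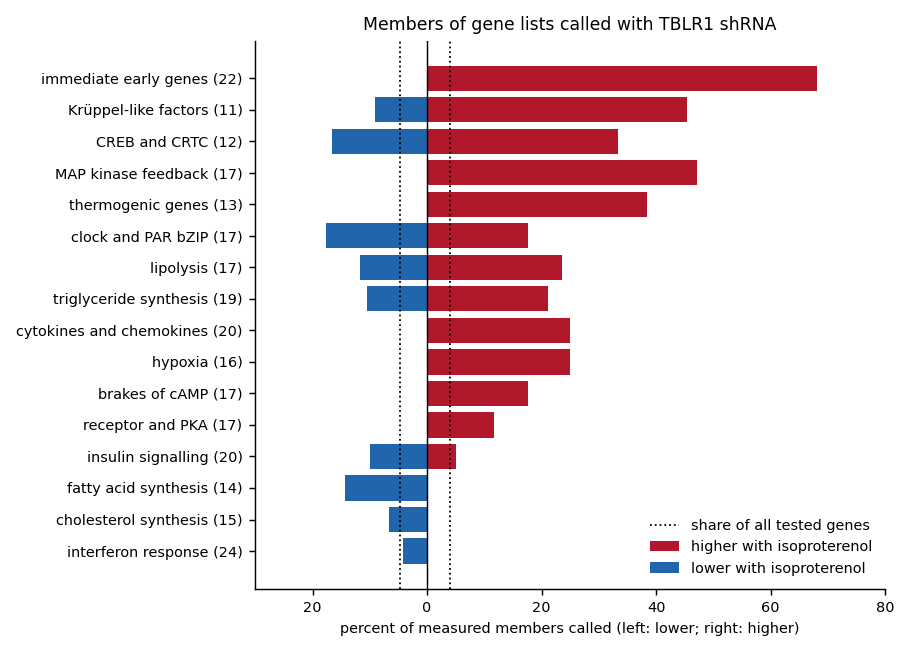
Percent of the measured members of 16 gene lists (vertical axis, number measured in brackets) called higher (to the right) or lower (to the left) with isoproterenol in TBLR1 shRNA cells, with dotted lines at the 4.09% and 4.78% of all tested genes. Immediate early genes extend farthest to the right, with 15 of 22 members.

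Genes of heat production and fuel handling moved through a few members. Of 13 thermogenic genes 5 were higher and none was lower (median 0.03), led by Ppargc1a and Pdk4. Fgf21, a secreted metabolic hormone whose mean level lay among the lowest 33% of genes, rose by 0.29. The count of thermogenic genes called was 3 of 13 without treated replicate 2 and also without untreated replicate 3. Pdk4 had log2 levels of 11.86, 11.84 and 11.74 with isoproterenol, against 10.74, 10.49 and 10.72 without it. Pck1, the cytosolic enzyme of glyceroneogenesis that supplies the glycerol backbone of triglyceride in fat cells, had 9.36, 9.27 and 9.31 with isoproterenol, against 8.44, 8.40 and 8.42 without it, a rise of 0.89 ± 0.076 (limma adjusted p = 1.38e-06). Its groups were tight and far apart. Of 19 triglyceride synthesis genes 4 were higher and 2 were lower (median 0.04), the others higher being the acyl-CoA synthetase Acsl4 (0.67 ± 0.064), the glycerol-3-phosphate acyltransferase Gpat3 (0.66 ± 0.042) and Dgat1, which catalyses the last step (0.46 ± 0.04).

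Genes of lipolysis moved in both directions. Of 17 lipolysis genes 4 were higher and 2 were lower (median -0.01), with 3 called in all without untreated replicate 2. Besides Hilpda, the antilipolytic hydroxycarboxylic acid receptor Hcar2 had log2 levels of 12.07, 11.94 and 12.07 with isoproterenol, against 10.95, 11.16 and 10.96 without it (rise 1.00 ± 0.076), and the lipoprotein lipase inhibitor Angptl4 rose by 0.46. The lower genes were the carboxylesterase Ces1f and Ffar2, a short-chain fatty acid receptor that also restrains lipolysis (-0.21 ± 0.051, limma adjusted p = 0.0158). Ffar2 lost its call without treated replicate 2 (adjusted p = 0.0834) or untreated replicate 2 (adjusted p = 0.0798). Lipe, which encodes hormone-sensitive lipase, had 10.85, 11.13 and 10.99 with isoproterenol, against 10.96, 10.92 and 10.89 without it, overlapping groups and a difference of 0.07 ± 0.056 (limma adjusted p = 0.52). Of 10 lipid droplet coat genes 2 were higher and 1 was lower (median -0.01), against 1 called in all without untreated replicate 3. Plin2, the coat of small droplets, was at 0.23 ± 0.05 (limma adjusted p = 0.00846), which became 0.20 (adjusted p = 0.0546) without that array. Plin3 was at -0.22 ± 0.038.

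Lipid synthesis and the LDL receptor axis were read in the same way. Of 14 fatty acid synthesis genes none was higher and 2 were lower (median -0.04), of which Srebf1, the sterol regulatory element binding factor, had a difference of -0.24 ± 0.045 (limma adjusted p = 0.00289). Only 1 of these 2 was called without treated replicate 1 or 3 or untreated replicate 1 or 3. Of 15 cholesterol synthesis genes none was higher and 1 was lower (median -0.05), namely the squalene synthase Fdft1 (-0.25 ± 0.055), and 2 were called without treated replicate 1. Of 10 genes of the LDL receptor and liver X receptor list 1 was higher and 2 were lower (median -0.04), the lower ones being Mylip and the sterol exporter Abcg1 (-0.32 ± 0.052, limma adjusted p = 0.00108). Abcg1 had log2 levels of 10.03, 9.92 and 9.92 with isoproterenol, against 10.21, 10.30 and 10.30 without it, with no overlap.

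Insulin signalling and glucose handling were touched at single points. Of 20 insulin signalling genes 1 was higher, Irs2, and 2 were lower (median 0.04), one of them Pdpk1, the kinase that activates AKT (-0.21 ± 0.036). Irs2 had log2 levels of 9.97, 9.99 and 9.80 with isoproterenol, against 9.01, 8.69 and 8.55 without it. Of 16 genes of the glycolysis and transport list 2 were higher and none was lower (median -0.02). Both were transporters: the glucose transporter Slc2a1 (0.76 ± 0.094) and the monocarboxylate transporter Slc16a1 (0.37 ± 0.054). The list as measured also counted Pigq, which is no glycolytic enzyme or transporter and was not called. Of 14 adipogenic factors 2 were higher and 3 were lower (median -0.12), including the rise of Cebpb (0.50 ± 0.043) and the fall of the glucocorticoid receptor Nr3c1 (-0.32 ± 0.047). The number called in that list was 2 without treated replicate 2, and 3 without treated replicate 3, untreated replicate 2 or 3, control shRNA treated replicate 3 or any control shRNA untreated array. Of 15 adipokines 2 were higher and 1, Saa3, was lower (median -0.00065).

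Several secreted signals rose. Of 20 cytokines and chemokines 5 were higher and none was lower (median 0.14). Il6 had log2 levels of 12.01, 11.96 and 12.04 with isoproterenol, against 11.24, 10.66 and 10.58 without it (rise 1.18 ± 0.16, limma adjusted p = 0.000227), and its untreated replicate 1 was the highest untreated array. Ptgs2, the inducible cyclooxygenase, had 8.16, 8.28 and 8.11 with isoproterenol, against 7.68, 7.22 and 7.15 without it (rise 0.83 ± 0.10), the growth factor Hbegf rose by 0.79 and the granulocyte factor Csf3 by 0.36. Of 24 interferon response genes none was higher and 1 was lower (median 0.06), and that number was 0 without treated replicate 2 or untreated replicate 2 and 2 without control shRNA untreated replicate 1. Of 15 NF-κB and SOCS genes 1, the cytokine signalling inhibitor Cish (0.39 ± 0.068), was higher and 1 was lower (median 0.06), with only 1 called without treated replicate 2 or 3 or untreated replicate 2 or 3.

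Markers of other cells were followed beside these groups. Of 11 macrophage markers 1 was higher, Cd14, a lipopolysaccharide co-receptor (0.87 ± 0.087), and none was lower. The mean level of the list was 6.60 to 6.63 with isoproterenol against 6.51 to 6.56 without it. Cd14 carried that shift: the other 10 markers differed by -0.07 to 0.13 each, and their mean level was 6.25 to 6.28 with isoproterenol against 6.23 to 6.27 without it. Of 12 preadipocyte and fibroblast markers 2 were higher, Twist2 (0.27 ± 0.057) and Prrx1 (0.25 ± 0.046), and the list averaged 9.99 to 10.06 with isoproterenol against 9.91 to 9.97 without it. Of 15 adipocyte markers 2 were higher and none was lower, with a mean level of 11.45 to 11.49 with isoproterenol against 11.45 to 11.48 without it, and the number called was 0 without treated replicate 2 and 1 without untreated replicate 2 or 3. None of 7 endothelial markers was called, and 1 of 10 brown adipocyte markers was (0 without treated replicate 2 or untreated replicate 3). The fibroblast mean of treated arrays thus lay slightly above that of untreated arrays, and so did the macrophage mean through Cd14 alone. The part of these means in the response was not tested. The other 10 macrophage markers averaged 6.26 both with and without isoproterenol, below the array median of 7.14, so their signal may lie near background. All arrays came from a single cell line. In such bulk samples fewer cells of a type and less RNA per cell cannot be told apart.

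The response was then set beside that of control shRNA cells, which share none of its arrays. The mean level of the adipocyte markers was 11.86 to 11.95 on the control shRNA arrays, against 11.45 to 11.49 on the TBLR1 shRNA arrays. For the preadipocyte and fibroblast markers it was 9.74 to 9.80 with control shRNA, against 9.91 to 10.06 with TBLR1 shRNA. The part of these marker levels in the comparison of the responses was not tested. Most of the genes that moved with TBLR1 shRNA also moved with control shRNA, but several of the largest rises, Nr4a1, Nfil3, Ppargc1a, Irs2 and Pdk4 among them, were smaller with TBLR1 shRNA by the interaction test given below. With control shRNA 2833 genes (18.6%) were called, 1175 (7.7%) of them higher and 1658 (10.9%) lower, with 164 higher and 25 lower by at least 1.5-fold, and the higher genes were 41.5% of those called (25.2% when arrays were centred on the hybridisation controls). The 435 genes called higher with both shRNAs were 69.7% of those called higher with TBLR1 shRNA and 37.0% of those called higher with control shRNA. The 513 genes called lower with both were 70.4% of those called lower with TBLR1 shRNA and 30.9% of those called lower with control shRNA, while 3 genes were called higher with TBLR1 shRNA and lower with control shRNA and 1 the other way round. Over all genes the 2 sets of log2 differences had a Pearson correlation of 0.73 and a Spearman correlation of 0.49, a description across genes, which are not independent replicates. Genes called higher with TBLR1 shRNA had a median rise of 0.27 with TBLR1 shRNA and 0.29 with control shRNA, and genes called lower had median differences of -0.21 with TBLR1 shRNA and -0.23 with control shRNA. Chosen the other way, genes called higher with control shRNA had a median of 0.12 with TBLR1 shRNA and 0.24 with control shRNA, and genes called lower there had -0.12 with TBLR1 shRNA and -0.22 with control shRNA.

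**Figure D4:**
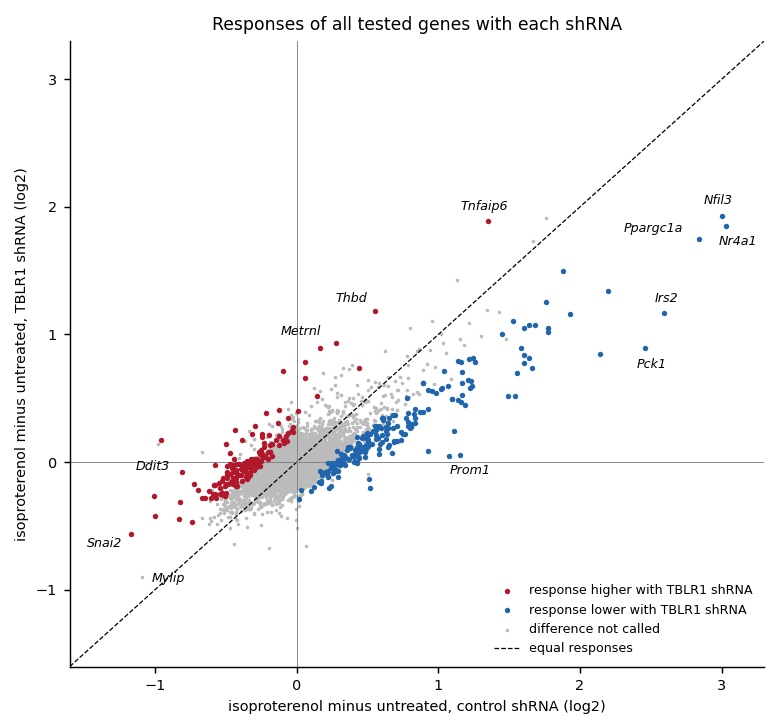
Log2 difference between isoproterenol and untreated cells with TBLR1 shRNA (vertical axis) against that with control shRNA (horizontal axis) for all 15267 tested genes, coloured where the difference between the responses was called, with a dashed line for equal responses. Nr4a1, Nfil3, Ppargc1a, Irs2 and Pck1 lie right of the line and Tnfaip6, Thbd and Metrnl left of it.

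The difference between the responses was tested as an interaction in the same limma model. It was called for 366 genes (2.4%), with the signed response higher under TBLR1 shRNA for 163 (1.07%) and lower for 203 (1.33%). Of the 163, 137 were genes called lower with control shRNA, and 26 were called higher with TBLR1 shRNA. Genes with a higher response were 44.5% of those called for the difference, but 59.9% with centring on the hybridisation controls. By at least 1.5-fold, 13 were higher and 35 were lower. The number called was between 198 and 237 when any one of 7 arrays was left out: 228 and 198 without treated TBLR1 shRNA replicates 2 and 3, 221 and 237 without untreated TBLR1 shRNA replicates 2 and 3, 232 and 218 without treated control shRNA replicates 2 and 3, and 235 without untreated control shRNA replicate 2. Since each difference is computed from both responses, the values of each response are given side by side.

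Among the 3 marks, Nr4a1 had responses of 1.85 with TBLR1 shRNA and 3.03 with control shRNA (difference -1.18 ± 0.12, limma adjusted p = 5.3e-05), and Nfil3 of 1.93 with TBLR1 shRNA and 3.00 with control shRNA (difference -1.07 ± 0.11, adjusted p = 3.93e-05). The treated Nr4a1 levels met, at 11.40 ± 0.08 with TBLR1 shRNA and 11.36 ± 0.11 with control shRNA (SD, n = 3), whereas the untreated levels were 9.55 ± 0.21 with TBLR1 shRNA and 8.33 ± 0.09 with control shRNA. Mylip had responses of -0.90 with TBLR1 shRNA and -1.09 with control shRNA, a difference of 0.19 ± 0.11 with a 95% interval of -0.039 to 0.42 that was not called (adjusted p = 0.483).

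The largest differences towards a smaller response with TBLR1 shRNA fell on metabolic regulators and immediate early factors. Pck1 had log2 levels of 9.31 ± 0.04 with isoproterenol and 8.42 ± 0.02 without it in TBLR1 shRNA cells, against 10.35 ± 0.21 with isoproterenol and 7.89 ± 0.09 without it in control shRNA cells (SD, n = 3), which gave a difference of -1.57 ± 0.11 (limma adjusted p = 1.62e-06). Irs2 had 9.92 ± 0.11 with isoproterenol and 8.75 ± 0.24 without it in TBLR1 shRNA cells, against 10.80 ± 0.07 with isoproterenol and 8.21 ± 0.03 without it in control shRNA cells (-1.42 ± 0.12). In both genes every untreated array of the depleted cells lay above the untreated control shRNA arrays and every treated array lay below the treated control shRNA arrays. Fos had 10.66 ± 0.15 with isoproterenol and 9.81 ± 0.35 without it in TBLR1 shRNA cells, against 10.26 ± 0.09 with isoproterenol and 8.12 ± 0.14 without it in control shRNA cells (-1.29 ± 0.18), and both its treated and its untreated arrays lay higher with TBLR1 shRNA. Ppargc1a had 9.62 ± 0.13 with isoproterenol and 7.87 ± 0.07 without it in TBLR1 shRNA cells, against 10.42 ± 0.15 with isoproterenol and 7.58 ± 0.02 without it in control shRNA cells (-1.09 ± 0.10). Prom1, a membrane glycoprotein of cell protrusions, had 6.33 ± 0.04 with isoproterenol and 6.28 ± 0.06 without it in TBLR1 shRNA cells, against 7.63 ± 0.05 with isoproterenol and 6.55 ± 0.05 without it in control shRNA cells (-1.03 ± 0.065). Its TBLR1 shRNA arrays with and without isoproterenol overlapped, and the response there was 0.045 ± 0.046 (limma adjusted p = 0.637). Both of these Prom1 means lay below the array median of 7.14, where a lack of change may reflect a signal near background.

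Further genes with a smaller response belonged to several roles. The small G protein Rasd1 had responses of 0.52 with TBLR1 shRNA and 1.54 with control shRNA (difference -1.03 ± 0.083), the stress kinase Plk3 of 0.52 with TBLR1 shRNA and 1.49 with control shRNA (-0.97 ± 0.094) and the centromere protein Cenpu of 0.056 with TBLR1 shRNA and 1.15 with control shRNA (-1.10 ± 0.11). The untreated arrays of Rasd1 overlapped, at 7.23 ± 0.04 with TBLR1 shRNA and 7.26 ± 0.06 with control shRNA (SD, n = 3). Coq10b had responses of 1.34 with TBLR1 shRNA and 2.19 with control shRNA (-0.85 ± 0.075), Pdk4 of 1.16 with TBLR1 shRNA and 1.93 with control shRNA (-0.77 ± 0.095), Klf4 of 0.78 with TBLR1 shRNA and 1.61 with control shRNA (-0.83 ± 0.12), Cebpb of 0.50 with TBLR1 shRNA and 1.10 with control shRNA (-0.60 ± 0.061) and Klf9 of 0.31 with TBLR1 shRNA and 0.79 with control shRNA (-0.47 ± 0.062). The treated Klf9 means met, at 10.14 with TBLR1 shRNA and 10.15 with control shRNA, while the untreated means were 9.82 with TBLR1 shRNA and 9.36 with control shRNA. Pdk4 had treated means of 11.81 with TBLR1 shRNA and 11.92 with control shRNA, and untreated means of 10.65 with TBLR1 shRNA and 9.99 with control shRNA. Among the brakes of cAMP, Crem had responses of 1.26 with TBLR1 shRNA and 1.76 with control shRNA (-0.51 ± 0.072) and Sik1 of 1.10 with TBLR1 shRNA and 1.53 with control shRNA (-0.43 ± 0.078). In Crem the untreated means were alike, at 7.42 with TBLR1 shRNA and 7.43 with control shRNA, and the treated means were 8.68 with TBLR1 shRNA and 9.20 with control shRNA. Sik2 had responses of 0.22 with TBLR1 shRNA and 0.56 with control shRNA (-0.34 ± 0.063, limma adjusted p = 0.00852), a call lost with centring on the hybridisation controls (-0.30, adjusted p = 0.0693).

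**Figure D5:**
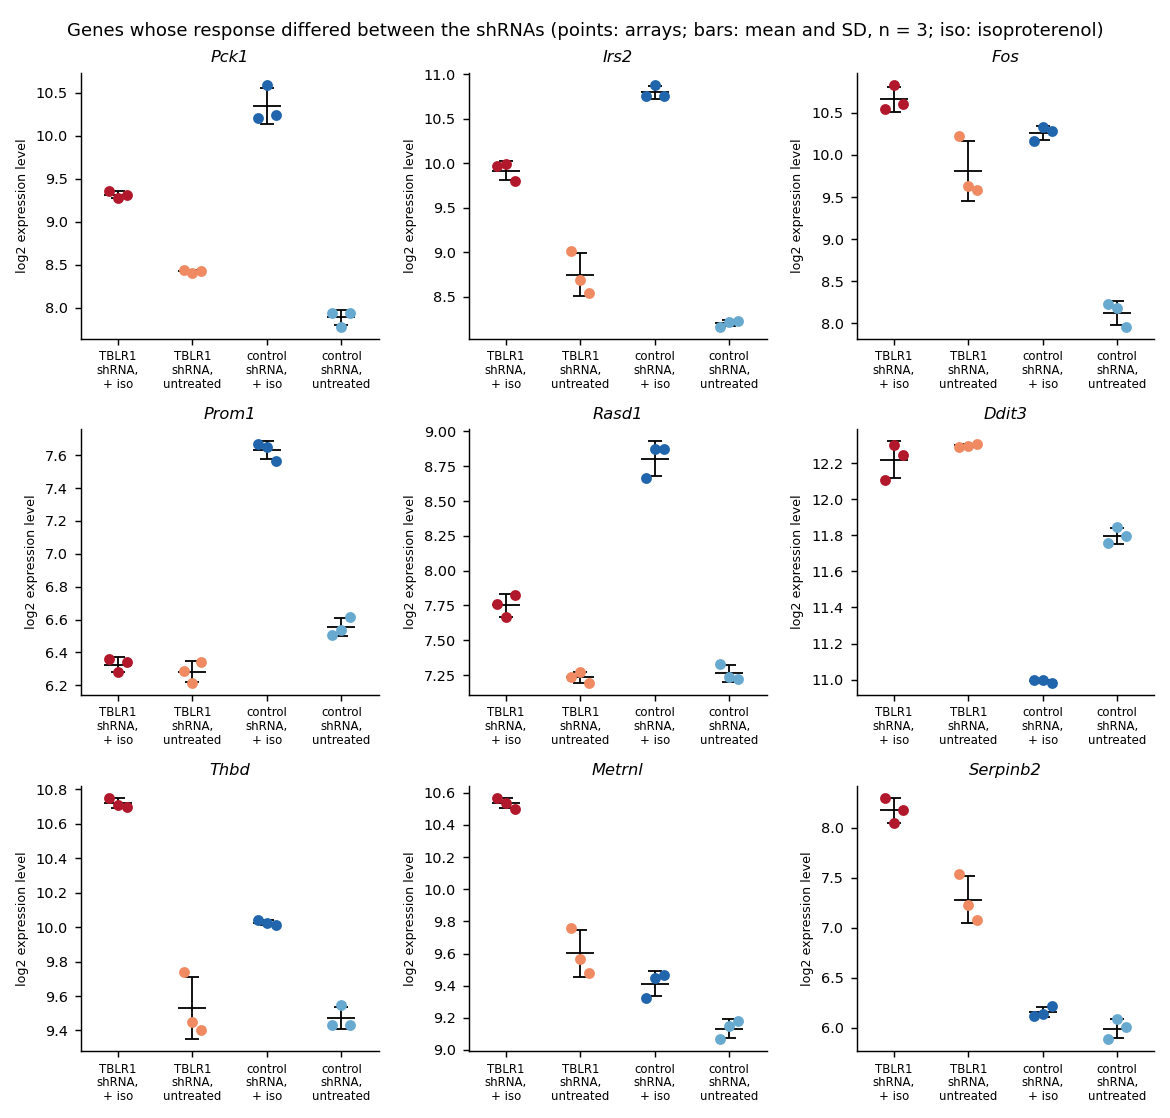
Log2 expression level (vertical axes) of 9 genes with a called difference between the responses, in the 4 groups by shRNA and isoproterenol (iso), with points for arrays and bars for the mean and SD of 3 arrays. Pck1, Irs2 and Rasd1 ended lower with TBLR1 shRNA than with control shRNA, whereas Thbd, Metrnl and Serpinb2 ended higher.

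The difference between the responses was positive for a smaller set. Thbd had log2 levels of 10.72 ± 0.03 with isoproterenol and 9.53 ± 0.18 without it in TBLR1 shRNA cells, against 10.02 ± 0.02 with isoproterenol and 9.47 ± 0.07 without it in control shRNA cells (SD, n = 3), a difference of 0.63 ± 0.093 (limma adjusted p = 0.00153). Metrnl, a secreted protein of fat and muscle, had 10.54 ± 0.03 with isoproterenol and 9.60 ± 0.15 without it in TBLR1 shRNA cells, against 9.41 ± 0.08 with isoproterenol and 9.13 ± 0.06 without it in control shRNA cells (0.65 ± 0.088). The untreated Thbd levels of the shRNAs overlapped, while every untreated Metrnl array lay higher with TBLR1 shRNA than with control shRNA. Serpinb2, a plasminogen activator inhibitor of the intracellular serpin class, had responses of 0.89 with TBLR1 shRNA and 0.17 with control shRNA (0.73 ± 0.13) and Tnfaip6 of 1.89 with TBLR1 shRNA and 1.35 with control shRNA (0.54 ± 0.11). Other positive differences belonged to genes that fell in control shRNA cells: Snai2 had responses of -0.56 with TBLR1 shRNA and -1.17 with control shRNA (0.61 ± 0.094), Syde2 of -0.45 with TBLR1 shRNA and -0.83 with control shRNA (0.38 ± 0.076), and the stress factor Ddit3, or CHOP, of -0.079 with TBLR1 shRNA and -0.81 with control shRNA (0.73 ± 0.066). Ddit3 had 12.22 ± 0.10 with isoproterenol and 12.30 ± 0.01 without it in TBLR1 shRNA cells, against 10.99 ± 0.01 with isoproterenol and 11.80 ± 0.04 without it in control shRNA cells. Cxcl10, an interferon-induced chemokine, had the largest positive difference (1.13 ± 0.24, limma adjusted p = 0.0223). Its responses were 0.17 with TBLR1 shRNA, which was not called, and -0.96 with control shRNA. The difference lost its call without treated TBLR1 shRNA replicate 3, untreated TBLR1 shRNA replicate 2 or 3, or treated control shRNA replicate 2 or 3 (adjusted p = 0.0569, 0.052, 0.0649, 0.064 and 0.0643). Cxcl10 also lost its call with trended and robust eBayes (adjusted p = 0.139). Dusp1 had responses of 1.43 with TBLR1 shRNA and 1.13 with control shRNA, a difference of 0.30 ± 0.15 that was not called (adjusted p = 0.4) and became 0.47 (adjusted p = 0.00984) without untreated TBLR1 shRNA replicate 1.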

How the data were processed

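Transcript levels came from 12 Affymetrix arrays, 3 for each of 4 groups, hybridised with biotinylated cRNA per the labels' protocols. The authors deposited 1 log2 value per probe set and array, a scale read from the range of 5.39 to 14.58. The sorted values of any pair of arrays differed by at most 0.0078 and every array had a median of 7.14, as quantile normalisation leaves them, so changes are relative to the bulk of genes. How background was corrected and probes were summarised is not given in the sources used here, and whether the values were otherwise centred is unknown. Of 16553 probe sets 61 were controls, 1222 had no symbol in the platform annotation and 15270 had 1, all found by Entrez ID in the RefSeq table. For 3 genes with over 1 probe set the one with the higher mean was used, which left 15267 genes.

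limma 3.58.1 (lmFit and eBayes, R 4.3.3) was fitted to 4 group means over all 12 arrays, with 8 residual and 7.38 prior degrees of freedom. The 3 contrasts were each isoproterenol response and their difference, with two-sided p-values adjusted by Benjamini and Hochberg over all genes and called under 0.05. Folds are 2 to the power of the log2 difference, errors are SE of the fit unless named SD, and the 95% interval is the fit's. The fit was checked on simulated data. An array gives no count, so the number of arrays limits precision, and the median SD within a group was 0.0486 to 0.0531. Same-numbered replicates did not deviate together (correlations of -0.209, -0.0843 and -0.0882 with TBLR1 shRNA and 0.0936, -0.0693 and 0.0147 with control shRNA), so no pairing was used. Genes named are the marks and the target, the 15 called genes that rose most and the 15 that fell most with no overlap of arrays, up to 4 called members of each of 34 lists (536 genes, 473 measured) and the 10 largest called differences each way, of which part is printed; Adipoq, Fabp4 and Lipe were added for the cell type and the pathway. The genes described and the lists were chosen with earlier results of these data known. Alternatives were another centring, cyclic loess, a trended and robust eBayes, the compared arrays alone, a replicate block, array weights, a filter on dim genes, the mean of probe sets and leaving out each array. Promoter windows were searched in Python 3.11.15, and figures were drawn with matplotlib 3.10.9.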

Additional observations from a re-analysis of the deposited data

Results flagged for a closer look

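The difference between the isoproterenol response of TBLR1 shRNA cells and that of control shRNA cells was past the threshold of the limma interaction test for 43 of the genes described. The signed log2 response was lower under TBLR1 shRNA for 31 and higher for 12. Some of these genes were described because this difference was called, so these counts give no share of genes at large. Over all genes tested the difference was called for 366 (2.4%), lower for 203 (1.33%) and higher for 163 (1.07%). The lower responses, as log2 differences between the responses, were Pck1 (-1.57), Irs2 (-1.42), Fos (-1.29), Nr4a1 (-1.18), Cenpu (-1.10), Ppargc1a (-1.09), Nfil3 (-1.07), Prom1 (-1.03), Rasd1 (-1.03) and Plk3 (-0.97), followed by Coq10b (-0.85), Klf4 (-0.83), Pdk4 (-0.77), Dusp6 (-0.77), Ankrd37 (-0.69), Bag3 (-0.65), Cebpb (-0.60), Nr4a2 (-0.60), Fosl1 (-0.57), Ppp1r15a (-0.55), Crem (-0.51), Klf9 (-0.47), Hcar2 (-0.45), Sik1 (-0.43), Hilpda (-0.38), Pde4b (-0.35), Sik2 (-0.34), Bhlhe40 (-0.33), Slc16a1 (-0.33), Rora (-0.31) and Fgf21 (-0.30). Rora fell with TBLR1 shRNA (-0.29) and was not called with control shRNA (0.017). A lower response did not always mean a lower treated level. Treated Dusp6 had a mean log2 level of 11.26 with TBLR1 shRNA and 9.80 with control shRNA, and treated Fosl1 8.82 with TBLR1 shRNA and 8.46 with control shRNA. The higher responses were Cxcl10 (1.13), Errfi1 (0.81), Ddit3 (0.73), Serpinb2 (0.73), Hbegf (0.73), Metrnl (0.65), Thbd (0.63), Snai2 (0.61), Tnfaip6 (0.54), Herpud1 (0.51), Syde2 (0.38) and Rcor3 (0.27). Among them, Cxcl10, Ddit3, Snai2, Herpud1, Syde2 and Rcor3 fell with control shRNA. With TBLR1 shRNA their fall was smaller or no change was called.

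Several of these calls depended on single arrays or on the fit. Besides Cxcl10, whose values stand with that gene, and Sik2, which lost its call only when arrays were centred on the hybridisation controls, 13 differences lost the call in at least 1 alternative setting, with a highest limma adjusted p over the settings as given for each: Rcor3 (0.0553), Hilpda (0.0727), Pde4b (0.0826), Hbegf (0.0971), Nr4a2 (0.0975), Hcar2 (0.107), Fosl1 (0.12), Bhlhe40 (0.122), Errfi1 (0.137), Slc16a1 (0.153), Dusp6 (0.171), Rora (0.203) and Fgf21 (0.239). Of these 13 and Cxcl10, the number that lost the call was 5, 11 and 11 without treated TBLR1 shRNA replicate 1, 2 or 3, and 4, 12 and 8 without untreated TBLR1 shRNA replicate 1, 2 or 3. It was 6, 10 and 12 without treated control shRNA replicate 1, 2 or 3, and 6, 7 and 11 without untreated control shRNA replicate 1, 2 or 3. The limma adjusted p of a lost call lay between 0.052 and 0.12 in these fits.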

How the results depend on the processing

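Across 20 alternative settings, 12 of which each left out 1 array, 113 of the 131 gene results past the threshold kept their direction and their call, and the exceptions stand beside those genes or with the differences between the responses above. Leaving out arrays in turn gave 752 to 1681 genes called with TBLR1 shRNA (399 to 771 higher, 353 to 910 lower, 82 to 117 by at least 1.5-fold), 2250 to 2900 with control shRNA (940 to 1201 higher, 1310 to 1699 lower) and 198 to 385 for the difference between the responses (71 to 178 higher, 127 to 207 lower). Centring on the hybridisation controls gave 472 genes lower with TBLR1 shRNA, 620 higher with control shRNA and 101 with a lower response under TBLR1 shRNA, while the median of all genes was -0.012 with TBLR1 shRNA, -0.052 with control shRNA and 0.042 for the difference between them, against -0.0042, -0.0036 and 0.00098 as reported; the cause was not tested. Apart from this centring and from leaving out arrays, the settings kept these counts within 1.5 times. With the replicate number as a block 1267 genes were called with TBLR1 shRNA (585 higher, 682 lower), 2723 with control shRNA and 320 for the difference, and since the numbers did not pair the arrays this changes no statement. Counts of several gene lists rested on 1 or 2 genes near the threshold and moved when single arrays were left out, as given with each list.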

Other observations

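Stress and matrix genes outside the groups above also moved with isoproterenol in TBLR1 shRNA cells. Of 18 genes of the integrated stress and unfolded protein responses 3 were higher and 1 was lower (median log2 difference 0.05). Ppp1r15a, the GADD34 subunit that directs dephosphorylation of the initiation factor eIF2α, had log2 levels of 9.25, 9.21 and 9.16 with isoproterenol, against 8.71, 8.56 and 8.48 without it (rise 0.62 ± 0.054, limma adjusted p = 1.5e-06). Herpud1, a component of endoplasmic reticulum associated degradation, had 9.46, 9.44 and 9.48 with isoproterenol, against 9.70, 9.81 and 9.82 without it (-0.32 ± 0.052, adjusted p = 0.00116). Its response was -0.32 with TBLR1 shRNA and -0.82 with control shRNA. Of 9 heat shock genes 2 were higher and 1 was lower (median 0.07), the higher ones being the co-chaperones Bag3 (0.49 ± 0.051) and Hsph1 (0.48 ± 0.043). Bag3 had responses of 0.49 with TBLR1 shRNA and 1.14 with control shRNA. Of 16 hypoxia genes 4 were higher and none was lower (median -0.01), among them Slc2a1, Ankrd37 (0.47 ± 0.10) and the oxygen-regulated subunit Hif1a (0.38 ± 0.051).

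Of 24 extracellular matrix genes 5 were higher and none was lower (median 0.08), and 3 were called without treated replicate 2 or untreated replicate 2 or 3. Thrombospondin 1, Thbs1, had log2 levels of 10.95, 11.35 and 11.10 with isoproterenol, against 10.85, 10.22 and 10.42 without it (rise 0.64 ± 0.13, limma adjusted p = 0.00496), with untreated replicate 1 close to the lowest treated array. Tenascin C, Tnc, rose by 0.59, and the aggrecanase Adamts4 by 0.45. Of 22 cell cycle genes 2 were higher, one of them the cyclin-dependent kinase inhibitor Cdkn1a (0.41 ± 0.06), and none was lower, with 1 called without untreated replicate 3. Of 21 fatty acid oxidation genes 2 were higher and 3 were lower (median -0.03), and 1 was called without treated replicate 2 or 3 or untreated replicate 2 or 3. None of 5 co-repressor complex genes was called (median -0.09), against 2 without untreated replicate 1.

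Of the 1222 probe sets without a symbol, which entered no count above, 39 were called higher and 45 lower with isoproterenol in TBLR1 shRNA cells, with log2 differences reaching 2.65 and -0.45. These counts read against the 4.09% of named genes called higher and the 4.78% called lower. The rise of 2.65 exceeded that of Nfil3 (1.93), so the ranking of largest rises covers only genes with a symbol.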
